A study of Homo sapiens with 12 samples.

Results

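Cyclic nucleotide phosphodiesterases (PDEs) were followed through RNA sequencing counts of ovarian cancer cells, with PDE2A set beside 9 other family members. The rows whose gene name was PDE2A, PDE3A, PDE3B, PDE4A, PDE4B, PDE4D, PDE5A, PDE7A, PDE8A or PDE10A were taken, which gave 10 genes of the 46350 named genes in the files. There were 12 libraries, 3 in each of 4 groups: SKOV3, SKOV3 with paeonol (PAE, a phenolic compound of peony root bark), SKOV3/DDP, and SKOV3/DDP with PAE. SKOV3 is labelled as a cisplatin-sensitive epithelial ovarian cancer line, and SKOV3/DDP, labelled cisplatin-resistant, was derived from it. The labels state neither a dose of PAE nor a duration of treatment, and the submitters describe the 3 libraries of a group as biological triplicates. Each line is a single established line in culture, and the libraries of a group are replicates of that line only.

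PDEs end the signals of cAMP and cGMP by hydrolysing them to AMP and GMP. The families differ in what they cut and in what regulates them: PDE2A cuts both nucleotides and is stimulated when cGMP binds it, PDE3A and PDE3B cut cAMP and are inhibited by cGMP, PDE10A cuts both, PDE5A cuts cGMP, and the PDE4, PDE7 and PDE8 families cut cAMP. cAMP is made by adenylyl cyclases and acts through protein kinase A, EPAC exchange factors and CREB-driven transcription, while cGMP is made by guanylyl cyclases and acts through protein kinase G.

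The files place the genes on GRCh38 and list their spans. PDE2A (NCBI Gene 5138) is on the minus strand at chr11:72576141-72674422. PDE4A (5141) is on the plus strand at chr19:10416773-10469631. The other dual-substrate or cGMP-inhibited members are PDE3A at chr12:20368537-20688583, PDE3B at chr11:14643691-14874139 and PDE10A at chr6:165327287-165988115. PDE4B lies at chr1:65792510-66374579 and PDE4D at chr5:58969038-60524329. PDE5A lies at chr4:119494403-119628804 and PDE8A at chr15:84980467-85139142.

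The 250 bases before the annotated start are shown for PDE2A and PDE4A, the 2 most GC-rich members, whose libraries were higher in SKOV3/DDP than in SKOV3 both without and with PAE. They come from RefSeq on GRCh38.p14, are written 5′ to 3′ on the gene's strand, and cover chr11:72674423-72674672 on the minus strand and chr19:10416523-10416772 on the plus strand. Capitals mark TGACG on either strand, the core of the cAMP response element to which CREB binds.
PDE2A: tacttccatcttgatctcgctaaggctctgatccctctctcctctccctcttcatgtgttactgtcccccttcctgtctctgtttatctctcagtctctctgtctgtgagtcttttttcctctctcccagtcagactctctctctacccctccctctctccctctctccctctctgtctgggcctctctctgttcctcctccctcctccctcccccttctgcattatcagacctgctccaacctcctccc
PDE4A: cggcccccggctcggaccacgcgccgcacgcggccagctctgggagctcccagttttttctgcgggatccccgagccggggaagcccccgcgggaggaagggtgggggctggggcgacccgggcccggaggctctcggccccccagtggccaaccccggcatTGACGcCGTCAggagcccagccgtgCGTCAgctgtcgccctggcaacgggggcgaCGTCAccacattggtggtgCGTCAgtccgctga
The PDE4A window held 5 such matches and no full TGACGTCA, and the PDE2A window held none. Of 35116 windows of this length before RefSeq genes, 21.2% held TGACG and 1.65% held TGACGTCA. Windows were matched for 8 of the 10 members (PDE3B and PDE7A had none in the table used), and the other 6 held no TGACG. For PDE3A, PDE4D and PDE10A the matched window lies inside the span listed above. It therefore does not describe the bases before their listed start. A match of letters is a description of the window and not of binding.

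Total counts were 14610008 to 18263479 per library, with a median of 16260043. Levels are given as TMM-normalized CPM (counts scaled to a fixed library total), with 3 counts over a group taken as the limit of detection, which lay between 0.0501 and 0.0862 CPM. Some libraries stood apart from what their labels lead to. CDKN2A, which SKOV3 is known to lack, was at 1357 to 1666 CPM in SKOV3 and at 0 to 0.189 CPM in SKOV3/DDP. Of 6 general epithelial markers, the keratin KRT7 was at 3447 to 3749 CPM in SKOV3 and at 0.519 to 2.399 CPM in SKOV3/DDP, and the other 5 were higher in SKOV3/DDP, among them EPCAM (0.426 to 1.95 against 271 to 313 CPM) and CDH1 (3.32 to 13.1 against 331 to 585 CPM). These 6 summed to 8068 to 8854 CPM in SKOV3 and to 10644 to 12866 CPM in SKOV3/DDP. A list of 8 intestinal epithelial markers summed to 0.0852 to 0.709 CPM in SKOV3 and to 520 to 575 CPM in SKOV3/DDP. Most of the latter sum was CDH17 (295 to 396 CPM) and CDX2 (107 to 202 CPM), which had no count in SKOV3. All 8 had a count in SKOV3/DDP, but KRT20 was at 0 to 0.442 CPM and GPA33 at 0.461 to 1.70 CPM there. With PAE the intestinal list summed to 0.210 to 0.755 CPM in SKOV3 and to 174 to 253 CPM in SKOV3/DDP. A list of 7 ovarian and Müllerian markers summed to 25.7 to 35.4 CPM in SKOV3, where 3 had a count, and to 4.80 to 8.02 CPM in SKOV3/DDP, where 5 had one. Most of it was PAX8 (23.3 to 34.0 against 3.40 to 5.57 CPM), while MECOM (0 to 0.170 against 0.631 to 1.59 CPM) and ESR1 (no count against 0.189 to 0.306 CPM) were higher in SKOV3/DDP, and SOX17 had no count in any library. In the comparisons of the lines below, cisplatin resistance and these other differences between the labelled cells cannot be told apart. In bulk RNA, fewer cells that express a gene and less of its RNA per cell cannot be told apart either.

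The 3 untreated SKOV3 libraries also differed from the other 9 in base composition. Their deviations in log2 CPM from the 12-library mean rose with the GC content of a gene (Spearman's rho between 0.652 and 0.657 over 15089 genes, a description since genes are no replicates), and those of the other 9 libraries fell with it (rho between −0.527 and −0.325). Deviations from a shared mean balance out for each gene, so a rise in 3 libraries by itself brings a fall in the other 9. The negative rho of the 9 is thus relative to that mean. PDE2A and PDE4A transcripts have a GC content of 58.5% and 58.8%, and the other 8 members lie between 38.1% and 44.8%. Therefore the members' fold changes and the counts of calls in comparisons that include untreated SKOV3 are also given after each library's smooth trend on transcript GC content and listed gene length was taken out. The part of this trend in the results was otherwise not tested. With TMM scaling, 7065 genes were higher and 5907 lower in untreated SKOV3/DDP than in SKOV3, against 8256 and 4685 with scaling by library size alone, and 5134 and 4631 with the trend removed. For PAE in SKOV3, 7292 rose and 5603 fell, against 9058 and 3834 by library size alone. For PAE in SKOV3/DDP, 2014 rose and 2512 fell, against 2889 and 1913. The median of all genes shifted with the scaling, from 0.41 to 1.16 (log2) between the untreated lines and from 0.48 to 1.36 for PAE in SKOV3.

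PDE2A was the member with the most counts, 16382 over the 12 libraries. Its level was 6.21, 4.77 and 5.25 CPM in the 3 SKOV3 libraries, and 210.0, 309 and 226 CPM in the 3 SKOV3/DDP libraries. With PAE it was 1.80, 1.57 and 2.47 CPM in SKOV3, and 63.6, 56.5 and 74.8 CPM in SKOV3/DDP. Every SKOV3/DDP library, with or without PAE, lay above every SKOV3 library, and within each line every library with PAE lay below every untreated one.

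**Figure D1:**
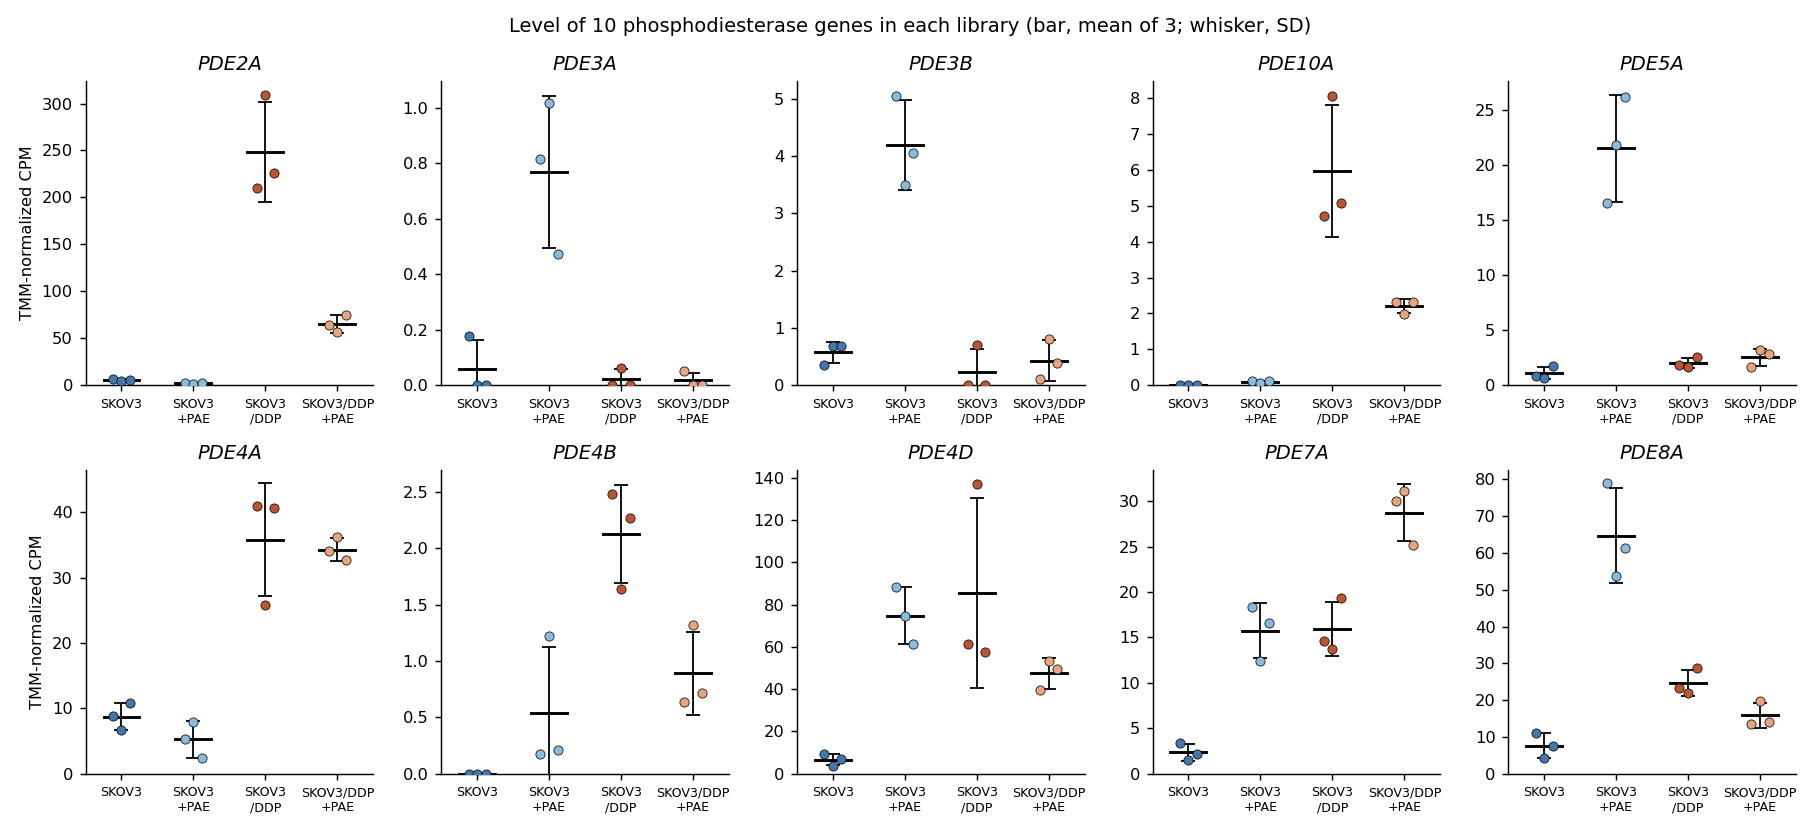
Level of each of the 10 members in the 12 libraries, as TMM-normalized CPM on a linear axis that starts at 0 and differs between panels. Points are libraries, bars the mean of 3 and whiskers the SD, cut at 0. PDE2A averaged 248 CPM in SKOV3/DDP and 5.41 CPM in SKOV3, while PDE3A, PDE3B, PDE5A and PDE8A had their highest mean in SKOV3 with PAE.

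Which PDE genes differ between the sensitive and the resistant line was asked of the untreated cells first. Of the 10 members, 8 passed the filter on low counts and 7 of these were higher in SKOV3/DDP at an adjusted p under 0.05 (quasi-likelihood test of edgeR, adjusted by Benjamini-Hochberg), the exception being PDE5A. Among the 7 were PDE4B and PDE10A, which passed the filter through SKOV3/DDP alone and so could only be called higher. Over all 15323 genes tested, 84.7% passed the same threshold, 46.1% as higher and 38.5% as lower, so a call was the usual outcome in this comparison. The members' median log2 fold change was 3.16, against 0.41 for all genes. It was the same with PDE4B and PDE10A, which had no count in SKOV3, set at their lower bounds. With the trend removed, 6 members were called, 5 higher and 1 lower, against 69.8% of all genes (36.7% higher and 33.1% lower).

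Among the dual-substrate enzymes, PDE2A was higher in untreated SKOV3/DDP by 5.46 ± 0.24 on the log2 scale (SE, edgeR adjusted p = 7.98e-07), and by 6.95 ± 0.24 with the trend removed (edgeR adjusted p = 5.87e-07). Its mean was 5.41 ± 0.730 CPM in SKOV3 and 248 ± 52.9 CPM in SKOV3/DDP (SD, n = 3 each). Leaving out each library in turn kept the difference between 5.29 and 5.61. PDE10A was not counted in any SKOV3 library and was at 4.73, 8.08 and 5.08 CPM in SKOV3/DDP, which is at least 65.8-fold higher when SKOV3 is set at 3 counts over the group. It passed the test with the trend in place and removed (edgeR adjusted p = 6.01e-05 and 0.00195). PDE3A and PDE3B were too low to be tested here: PDE3A had 2 counts over the 3 SKOV3 libraries and 1 over the 3 SKOV3/DDP libraries, and PDE3B had 20 and 11.

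The cAMP-specific members were also higher in untreated SKOV3/DDP by this fit, but not all of them with the trend removed. PDE4A, of the rolipram-sensitive family, was at 8.78, 6.65 and 10.8 CPM in SKOV3 and 40.9, 25.9 and 40.6 CPM in SKOV3/DDP. It was higher by 1.98 ± 0.28 (log2, edgeR adjusted p = 0.000187), and by 3.35 ± 0.27 with the trend removed (edgeR adjusted p = 1.35e-05). PDE4B, known for its role in inflammatory cells, had no count in SKOV3 and was at 2.48, 1.64 and 2.26 CPM in SKOV3/DDP, at least 23.8-fold higher (edgeR adjusted p = 0.000162, and 0.00254 with the trend removed). PDE4D, another member of the same family, was at 9.13, 3.83 and 6.86 CPM in SKOV3 and 61.4, 137 and 57.6 CPM in SKOV3/DDP. Its difference of 3.63 ± 0.45 (edgeR adjusted p = 8.67e-05) became 0.49 ± 0.35 with the trend removed (edgeR adjusted p = 0.235).

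PDE7A and PDE8A encode high-affinity cAMP enzymes that rolipram does not inhibit. PDE7A lies on the minus strand at chr8:65714334-65842064 and was at 3.37, 1.53 and 2.20 CPM in SKOV3 and 14.65, 13.8 and 19.3 CPM in SKOV3/DDP, a log2 difference of 2.69 ± 0.34 (edgeR adjusted p = 9.27e-05) that was 0.76 ± 0.27 with the trend removed (edgeR adjusted p = 0.0311). It shares its locus with MTFR1 on the opposite strand, whose means were 6.58 CPM in SKOV3 and 75.9 CPM in SKOV3/DDP. Whether counting used strand is not given in the sources used here, so reads of these 2 genes may not have been told apart. PDE8A was at 10.996, 4.35 and 7.54 CPM in SKOV3 and 23.3, 21.9 and 28.7 CPM in SKOV3/DDP. It was higher by 1.63 ± 0.33 (edgeR adjusted p = 0.00165), whereas its value was −0.60 ± 0.24 with the trend removed (edgeR adjusted p = 0.0560).

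PDE5A, the cGMP-specific enzyme that sildenafil inhibits, did not pass the test between the untreated lines. It was at 0.798, 0.682 and 1.70 CPM in SKOV3 and 1.85, 1.64 and 2.51 CPM in SKOV3/DDP, and the ranges overlapped. The log2 difference was 0.85 ± 0.44 (edgeR adjusted p = 0.102). After removal of the trend it was lower in SKOV3/DDP, at −2.09 ± 0.46 (edgeR adjusted p = 0.00334).

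The lines were then compared with PAE in both, a comparison whose group means leave out the untreated SKOV3 libraries, although these were part of the fit. Here 9 members were tested and 7 were called, 4 higher and 3 lower in SKOV3/DDP, against 54.5% of all 17133 genes (27.5% higher and 27.1% lower). The members' median was 0.71, and that of all genes 0.06. Removing the trend changed the members' values by little: 8 were called, 4 in each direction, with PDE4D as the added one, beside 59.8% of all genes (30.5% higher and 29.3% lower). In a fit of only the 6 libraries compared, 8 members were called, 4 higher and 4 lower, beside 8809 of 15965 genes.

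PDE2A was again higher in SKOV3/DDP, by 5.05 ± 0.27 (log2, edgeR adjusted p = 2.01e-09), and by 5.00 ± 0.27 with the trend removed. The mean with PAE was 1.95 ± 0.467 CPM in SKOV3 and 65.0 ± 9.19 CPM in SKOV3/DDP (SD, n = 3 each). PDE4A was at 5.35, 7.97 and 2.42 CPM against 34.0, 36.2 and 32.6 CPM in SKOV3/DDP, higher by 2.70 ± 0.36 (edgeR adjusted p = 1.59e-05). PDE10A was at 0.116, 0.0508 and 0.105 CPM, from 5 counts in all, against 2.31, 1.97 and 2.31 CPM (edgeR adjusted p = 1.15e-05). These 3 genes were called higher in SKOV3/DDP in both comparisons of the lines. The group means of the 2 comparisons share no library. The fit with PAE nevertheless held all 12 libraries, so its filter, scaling and estimate of the spread also drew on the untreated ones.

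PDE7A was called higher as well, by 0.87 ± 0.27 (edgeR adjusted p = 0.0140), but the call was lost without SKOV3 with PAE replicate 2, where the difference was 0.71. PDE5A, PDE8A and PDE3B were lower in SKOV3/DDP with PAE than in SKOV3 with PAE. PDE5A was at 16.5, 21.8 and 26.1 CPM against 1.67, 3.15 and 2.81 CPM, a difference of −3.08 ± 0.38 (edgeR adjusted p = 7.21e-06). PDE8A was at 78.9, 53.8 and 61.5 CPM against 13.6, 19.9 and 14.03 CPM, a difference of −2.03 ± 0.30 (edgeR adjusted p = 4.24e-05).

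PDE3B, the cGMP-inhibited enzyme of adipocytes and hepatocytes, was at 5.05, 3.504 and 4.05 CPM in SKOV3 with PAE against 0.0981, 0.799 and 0.385 CPM in SKOV3/DDP with PAE (log2 difference −3.27 ± 0.83, edgeR adjusted p = 0.00384). For PDE4D the libraries did not overlap (61.3 to 88.2 against 39.4 to 53.2 CPM), but the log2 difference of −0.66 ± 0.34 did not pass (edgeR adjusted p = 0.112), and with the trend removed it was −0.80 ± 0.29 (edgeR adjusted p = 0.0280). PDE4B was at 0.174, 1.22 and 0.210 CPM against 0.638, 1.32 and 0.715 CPM, with overlapping ranges and a log2 difference of 0.71 ± 0.68 (edgeR adjusted p = 0.397). Of its 31 counts in SKOV3 with PAE, 24 were in replicate 2, without which the difference was 2.16 ± 0.66 and called (edgeR adjusted p = 0.0191). PDE3A, known from heart and platelets, was not tested: it had 43 counts over the SKOV3 libraries with PAE and 1 over those of SKOV3/DDP.

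**Figure D2:**
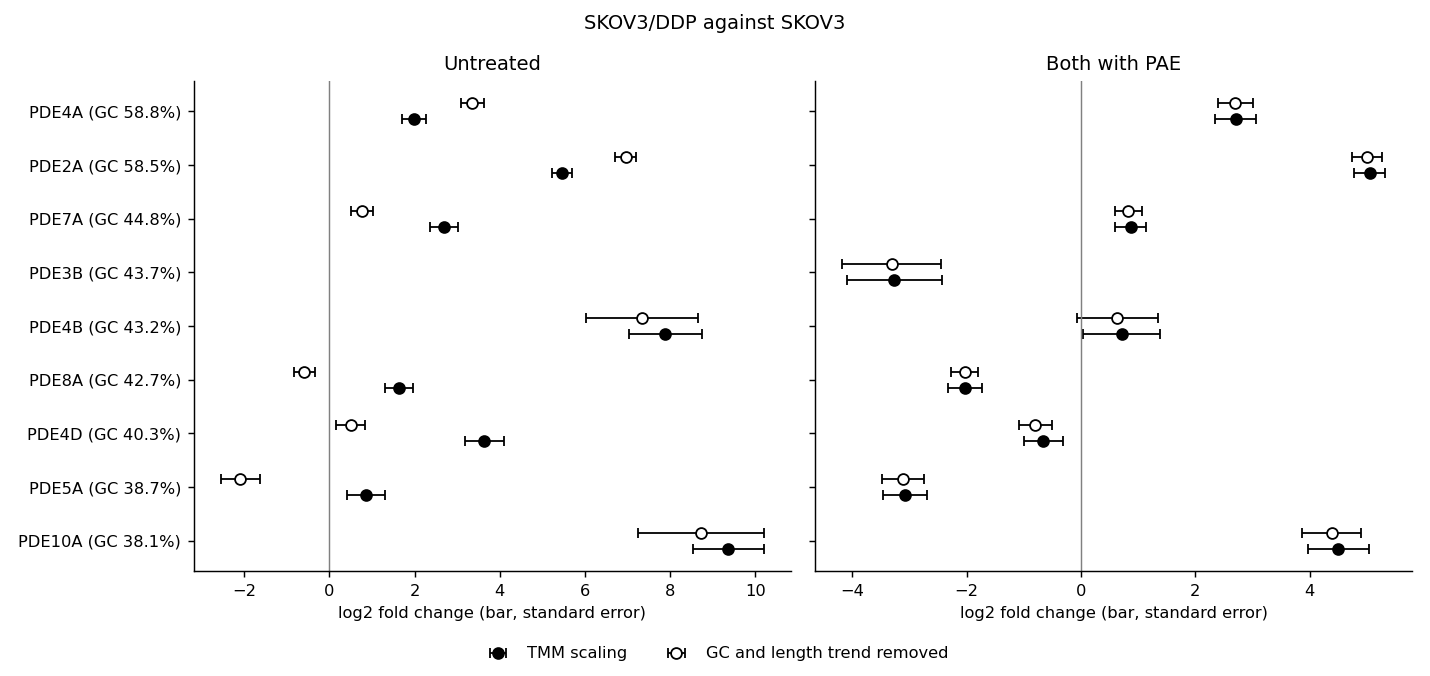
Log2 fold change from SKOV3 to SKOV3/DDP of the members tested, ordered by the GC content of their transcripts, in untreated cells (left) and with PAE in both lines (right). Filled points are TMM-scaled values, open points values with the GC and length trend removed, and bars standard errors. PDE2A stood at 5.46 and 5.05 by TMM scaling, and PDE4D moved from 3.63 to 0.49 when the trend was removed in untreated cells. PDE3B was not tested in untreated cells, and the values of PDE4B and PDE10A there rest on no count in SKOV3.

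What PAE did to these genes was asked in each line. In SKOV3, 8 of 9 members tested passed the threshold, 7 higher and 1 lower with PAE, beside 75.3% of all genes tested (42.6% higher and 32.7% lower). PDE4B and PDE10A, without a count in untreated SKOV3, could only be called higher. The members' median was 3.08, or 2.73 with PDE4B and PDE10A at their lower bounds, and that of all genes was 0.48. With the trend removed, 4 members were called, all higher, against 50.3% of all genes (28.2% higher and 22.1% lower). This contrast sets untreated SKOV3 libraries, with their distinct base composition, against libraries without it.

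PDE2A fell with PAE in SKOV3 by 1.47 on the log2 scale (SE 0.25, edgeR adjusted p = 8.58e-05), but was 0.21 ± 0.26 with the trend removed (edgeR adjusted p = 0.527). PDE4A, of about the same GC content, changed sign in the same way, from −0.73 ± 0.35 (edgeR adjusted p = 0.0700) to 0.82 ± 0.30 (edgeR adjusted p = 0.0368). Scaling by library size alone left PDE2A lower, at −0.59 ± 0.25 (edgeR adjusted p = 0.0415), so its sign changed only where the trend was removed.

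The AT-rich members rose. PDE5A was 4.33 ± 0.42 higher on the log2 scale with PAE (edgeR adjusted p = 2.00e-07), and 1.16 ± 0.38 with the trend removed (edgeR adjusted p = 0.0221). PDE8A was higher by 3.08 ± 0.32 (edgeR adjusted p = 3.61e-07) and by 0.67 ± 0.24 with the trend removed (edgeR adjusted p = 0.0312). PDE7A was higher by 2.73 ± 0.31 (edgeR adjusted p = 9.40e-07) and by 0.70 ± 0.26 with the trend removed (edgeR adjusted p = 0.0393). These 3 genes and PDE4A were the members still called with the trend removed.

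PDE4D was higher by 3.498 ± 0.38 (edgeR adjusted p = 6.18e-07), and by 0.30 ± 0.31 with the trend removed (edgeR adjusted p = 0.437). PDE3B was higher by 2.86 ± 0.84 (edgeR adjusted p = 0.00634), and by 0.43 ± 0.88 with the trend removed (edgeR adjusted p = 0.714). Both calls were thus absent after the trend was taken out. PDE4B went from no count to 3, 24 and 4 counts in the 3 libraries, at least 6.43-fold higher (edgeR adjusted p = 0.00272, and 0.106 with the trend removed). Without replicate 2, which held the 24, the bound was 2.24-fold, and the gene was still called (edgeR adjusted p = 0.00957). PDE10A went from no count to 5 counts, a bound of 1.04-fold, and its call (edgeR adjusted p = 0.0378) was not kept with the trend removed (edgeR adjusted p = 0.549). PDE3A, not tested, had 2 counts without and 43 with PAE, and the ratio was 13.4 (95% counting interval 3.49 to 114).

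In SKOV3/DDP, 3 of 9 members passed, 1 higher and 2 lower with PAE, against 26.4% of all genes (11.8% higher and 14.7% lower). The members' median was −0.64, and that of all genes 0. The rho on GC content of deviations from the 12-library mean was −0.349 to −0.325 in SKOV3/DDP and −0.464 to −0.348 with PAE. With the trend removed, 5 members were called, 1 higher and 4 lower, against 32.6% of all genes (15.7% higher and 16.9% lower).

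PDE2A showed the largest size of change among the members called in SKOV3/DDP. It fell by 1.93 on the log2 scale with PAE (SE 0.23, edgeR adjusted p = 8.96e-05), to 0.261 of the untreated level by pooled counts (95% counting interval 0.252 to 0.271), and by 1.73 with the trend removed (edgeR adjusted p = 0.000119). With each library left out in turn it stayed between −2.01 and −1.75. PDE10A fell by 1.44 (SE 0.38, edgeR adjusted p = 0.0154) and by 1.63 with the trend removed (edgeR adjusted p = 0.00659). PDE7A was higher with PAE, at 30.0, 31.2 and 25.1 CPM, by 0.85 ± 0.27 (edgeR adjusted p = 0.0319). The calls of PDE7A and PDE10A were lost without SKOV3/DDP with PAE replicate 1, without its replicate 2, and without SKOV3/DDP replicate 2, and that of PDE7A also without SKOV3/DDP replicate 1.

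PDE4D, PDE8A and PDE4B did not pass the test in SKOV3/DDP although the libraries with PAE all lay below the untreated ones. PDE4D was at −0.85 ± 0.34 (edgeR adjusted p = 0.0765), and one untreated library, replicate 2 at 137 CPM, stood above the others. Its value was −0.99 ± 0.29 after removal of the trend (edgeR adjusted p = 0.0179). PDE8A was at −0.64 ± 0.29 (edgeR adjusted p = 0.120), and at −0.71 ± 0.23 with the trend removed (edgeR adjusted p = 0.0310). PDE4B was at −1.25 ± 0.64 (edgeR adjusted p = 0.171).

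PDE4A was nearly level in SKOV3/DDP, at 35.8 ± 8.59 CPM without and 34.3 ± 1.80 CPM with PAE (SD, n = 3 each), a log2 difference of −0.06 ± 0.33 (edgeR adjusted p = 0.930). PDE5A was at 0.34 ± 0.37 (edgeR adjusted p = 0.533) and PDE3B at 0.91 ± 0.98 (edgeR adjusted p = 0.530). PDE3B there rested on 1 of 3 untreated libraries with any count. Its value lay between 0.10 and 5.87 with each library left out in turn, and without that library, SKOV3/DDP replicate 2, it was called (edgeR adjusted p = 0.0123), against a group with no count. The study's methods state criteria for genes that differ between SKOV3 and SKOV3/DDP (unadjusted p under 0.05 and a log2 fold change over 2 in size). For PAE in SKOV3/DDP 0 of 9 members met them, beside 1218 of 17133 genes. Between the untreated lines 5 of 8 did (8792 of 15323 genes), and between the lines with PAE 6 of 9 (4220 of 17133). For PAE in SKOV3 7 of 9 did (8608 of 17133).

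**Figure D3:**
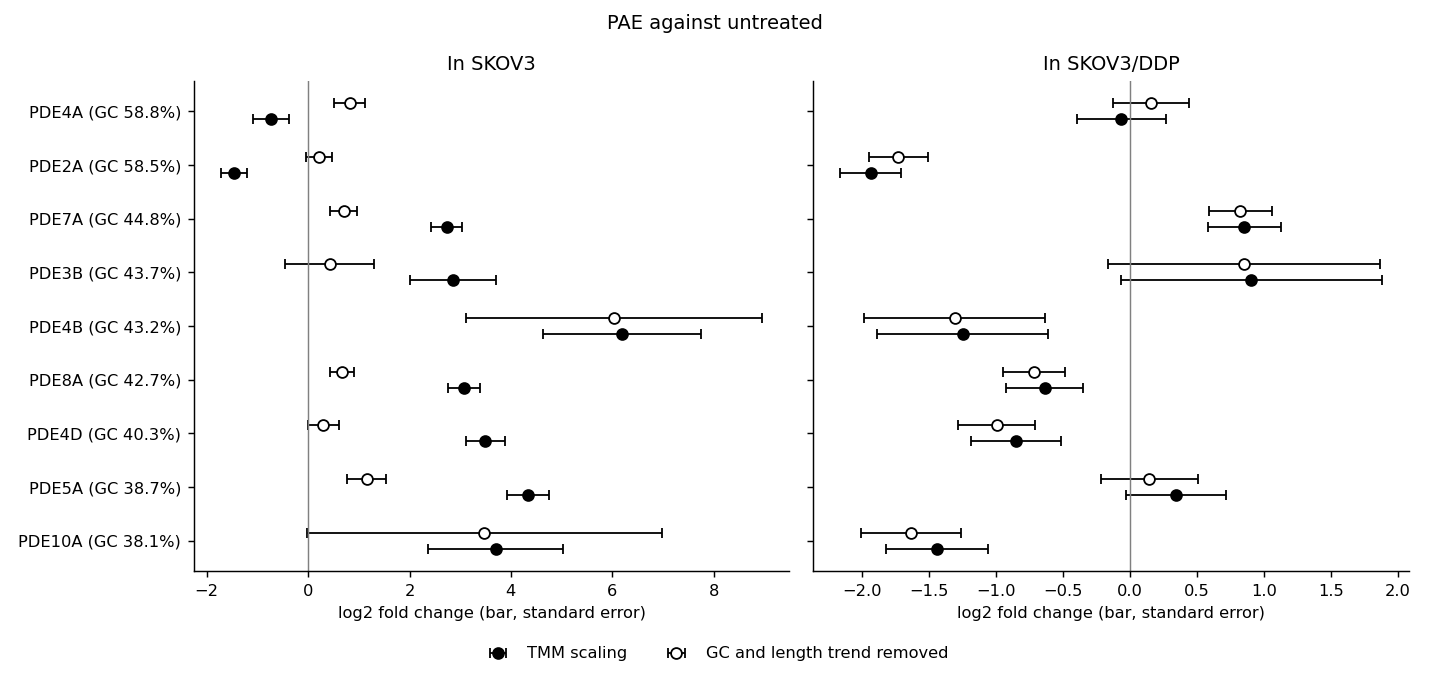
Log2 fold change with PAE against untreated cells for the 9 members tested, ordered by GC content, in SKOV3 (left) and SKOV3/DDP (right, with a narrower axis). Filled points are TMM-scaled values, open points values with the GC and length trend removed, and bars standard errors. In SKOV3 the points of PDE2A stood at −1.47 and 0.21, and in SKOV3/DDP at −1.93 and −1.73. PDE4B and PDE10A in SKOV3 rest on no count in untreated cells.

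The difference of the PAE effect between the lines (SKOV3/DDP minus SKOV3, the interaction term) was negative and called for 6 of 9 members, against 62.9% of all genes (25.5% positive and 37.4% negative). These were PDE4B, PDE4D, PDE5A, PDE7A, PDE8A and PDE10A. With the trend removed, 4 members were called, against 42.3% of all genes (19.4% positive and 22.9% negative), and PDE2A was among them. PDE2A was at −0.47 ± 0.34 (edgeR adjusted p = 0.246) with TMM scaling and at −1.94 ± 0.34 (edgeR adjusted p = 0.000471) with the trend removed. PDE4A was at 0.67 ± 0.48 (edgeR adjusted p = 0.242), and at −0.66 ± 0.41 with the trend removed (edgeR adjusted p = 0.218). PDE3B was at −1.95 ± 1.33 (edgeR adjusted p = 0.218), and at 0.42 ± 1.303 with the trend removed (edgeR adjusted p = 0.839). With each library left out in turn PDE3B lay between −2.76 and 3.01, the last without SKOV3/DDP replicate 2, so the sign of both depended on the setting.

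The place of PDE2A in the family is also seen from its share of the members' counts within a library, where the scaling between libraries cancels. It held 15.6%, 21.2% and 15.0% in the SKOV3 libraries, and 0.837%, 0.884% and 1.41% after PAE. In SKOV3/DDP it held 58.4%, 59.4% and 59.2%, and 34.3%, 27.7% and 36.9% after PAE. No pair of groups that was compared overlapped. The least precise of these shares, of 264 counts, had an exact 95% binomial interval of 16.4% to 26.6%, and intervals cover counting error only. PDE2A thus made up more of the PDE counts in SKOV3/DDP than any other member, and about a percent of them in SKOV3 with PAE.

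Between the untreated lines the mean share differed by 41.7 percentage points, and with PAE by 31.9. With PAE it fell by 16.2 points in SKOV3 and fell by 26.04 in SKOV3/DDP. Each difference had p = 0.1 in a two-sided exact permutation test, the smallest that 3 against 3 libraries can give, and 0.1 after adjustment over the 4 comparisons. With the trend removed the shares were 2.93% in SKOV3, 2.37% in SKOV3 with PAE, 69.9% in SKOV3/DDP and 46.1% in SKOV3/DDP with PAE, and the libraries of the 2 SKOV3 groups then overlapped while those of the other pairs did not. As a share of PDE2A and PDE4A together, whose GC contents are alike, PDE2A held 38.7%, 30.7%, 86.9% and 65.3% in the same order, again with overlap between the 2 SKOV3 groups. This last share was chosen after seeing the data.

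**Figure D4:**
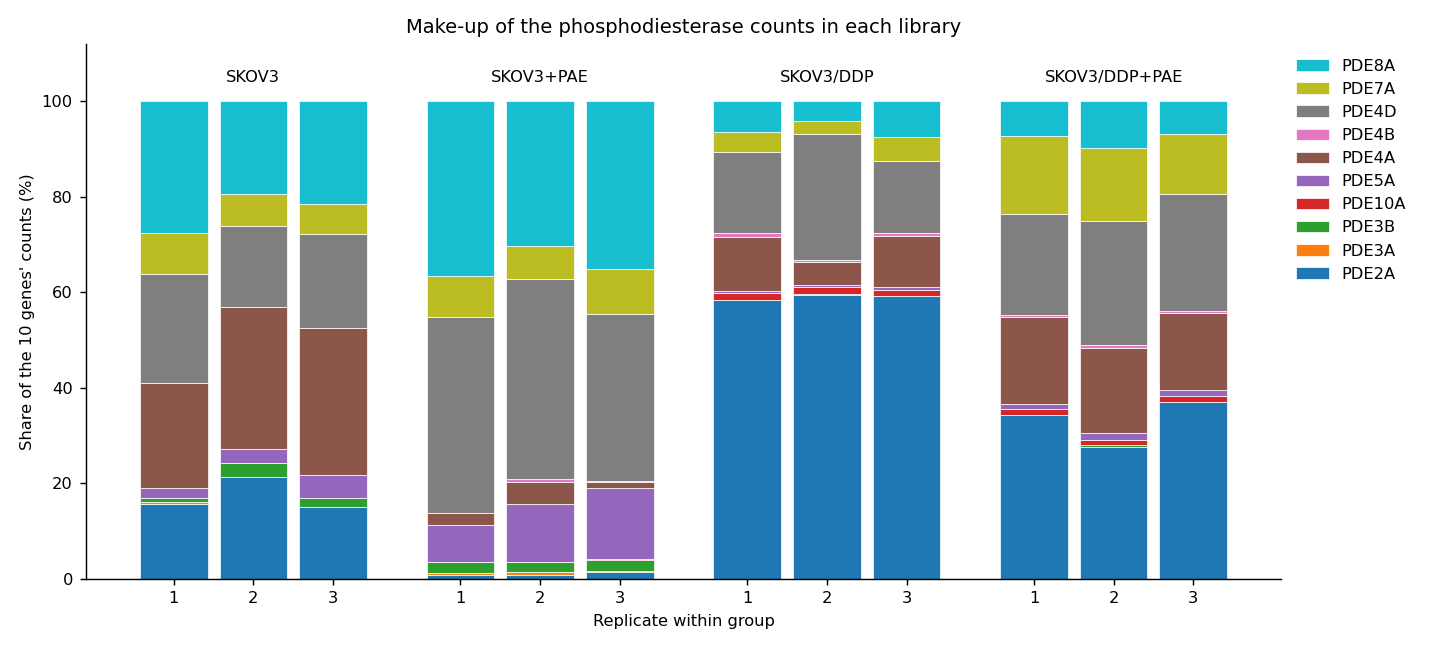
Share of each member in the summed counts of the 10 genes, as a stacked bar for each of the 12 libraries. PDE2A, at the bottom, made up 58.4% to 59.4% in SKOV3/DDP and 0.837% to 1.41% in SKOV3 with PAE, where PDE4D and PDE8A made up the most.

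The sum over the 10 members was 32.4 ± 8.94 CPM in SKOV3, 189 ± 22.3 CPM in SKOV3 with PAE, 420 ± 86.6 CPM in SKOV3/DDP and 197 ± 10.4 CPM in SKOV3/DDP with PAE (SD, n = 3 each). These sums have the GC and length trend in place, and those set against untreated SKOV3 carry it. With the trend removed, PDE4D had 343 to 439 counts in the SKOV3 libraries and 652 to 954 with PAE. PDE8A then had 237 to 355 and 727 to 851. In SKOV3 with PAE, PDE4D held 39.3% ± 3.78 and PDE8A 34.0% ± 3.36 of the members' counts. In SKOV3/DDP with PAE, PDE4D held 23.96% ± 2.47, PDE4A 17.4% ± 1.15 and PDE7A 14.61% ± 1.96.

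Levels were compared between genes per kilobase of the listed length (CPM per kb, mean ± SD, n = 3). In SKOV3, PDE4A (1.40 ± 0.331), PDE8A (1.31 ± 0.571) and PDE2A (1.13 ± 0.152) came first with overlapping ranges, above PDE4D (0.341 ± 0.137), PDE7A (0.301 ± 0.118) and PDE5A (0.139 ± 0.0727), which overlapped among neighbours. PDE3B was lower, at 0.0670 ± 0.0220, and PDE3A, PDE4B and PDE10A were at or near 0. This order in SKOV3 has the GC and length trend in place, and depends on it. With the trend removed, counts in the SKOV3 libraries, not divided by length, were 25.6 to 29.4 for PDE2A and 38.4 to 57.8 for PDE4A. Those of PDE8A were then 237 to 355, of PDE4D 343 to 439, of PDE7A 71.6 to 88.6 and of PDE5A 37.0 to 97.3. In SKOV3/DDP, PDE2A was at 51.8 ± 11.04, above every library of PDE4A (5.75 ± 1.38), PDE4D (4.40 ± 2.32) and PDE8A (4.23 ± 0.616), which overlapped. PDE7A followed at 2.02 ± 0.382, and PDE10A, PDE4B and PDE5A overlapped at 0.262 to 0.371.

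With PAE, PDE8A came first in SKOV3 at 11.1 ± 2.21 CPM per kb, clear of PDE4D (3.85 ± 0.694), PDE5A (2.82 ± 0.633) and PDE7A (2.004 ± 0.387), whose neighbouring ranges overlapped. PDE2A was then seventh, at 0.407 ± 0.0975, and overlapped PDE3B (0.493 ± 0.0922). In SKOV3/DDP with PAE, PDE2A was still first at 13.6 ± 1.92, and PDE4A was second at 5.50 ± 0.288, both clear of the next gene. PDE7A (3.66 ± 0.405), PDE8A (2.72 ± 0.600) and PDE4D (2.45 ± 0.371) overlapped with their neighbours.

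The other 14 PDE genes of the files, which include subunits of the photoreceptor enzyme, were listed for comparison. PDE6H had no count in any library. PDE9A, a high-affinity cGMP enzyme, was at 18.8 ± 2.58 CPM in SKOV3, 17.7 ± 2.69 in SKOV3 with PAE, 33.3 ± 22.0 in SKOV3/DDP and 6.65 ± 1.01 in SKOV3/DDP with PAE. Like PDE2A it fell with PAE in SKOV3/DDP, by 2.32 on the log2 scale (SE 0.37, edgeR adjusted p = 0.000584), and was at −2.22 with the trend removed. Between the untreated lines PDE9A was at 0.76 ± 0.42 (edgeR adjusted p = 0.119), and at 1.49 ± 0.41 with the trend removed (edgeR adjusted p = 0.0107). PDE6D, which binds prenylated proteins and has no catalytic domain, was at 30.8, 19.8, 20.6 and 35.0 CPM in the same order of groups.

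PDE8B, the close relative of PDE8A, rose with PAE in SKOV3 from 0.615 ± 0.698 to 13.6 ± 8.57 CPM (edgeR adjusted p = 2.40e-05, and 0.00941 with the trend removed). PDE1C, a calmodulin-dependent enzyme, had no count in SKOV3 and was at 2.93 ± 1.85 CPM in SKOV3/DDP, at least 32.1-fold higher (edgeR adjusted p = 0.000637, and 0.0193 with the trend removed), and fell to 0.447 ± 0.272 CPM with PAE there (edgeR adjusted p = 0.0111). PDE7B (2.85 CPM) and PDE4C (2.67 CPM) had their highest mean in SKOV3 with PAE, PDE11A (2.09 CPM) in SKOV3/DDP, and PDE6C (1.34 CPM) and PDE6G (1.10 CPM) in SKOV3/DDP with PAE. PDE1A, PDE1B, PDE6A and PDE6B stayed under 1 CPM in every group mean. Between the untreated lines 8 of the 14 were tested, and 4 were higher and 2 lower (5 and 0 with the trend removed), where 84.7% of all genes were called. PDE1C and PDE6C, without a count in SKOV3, could only be called higher there. In the other comparisons 9 were tested. Between the lines with PAE, 4 were higher and 4 lower (the same counts with the trend removed), beside 54.5% of all genes. With PAE in SKOV3, 4 rose and 1 fell (2 and 1 with the trend removed), beside 75.3%. With PAE in SKOV3/DDP, 1 rose and 2 fell (again the same counts), beside 26.4%. Among 21 catalytic PDE genes together, PDE2A held 10.2% of the counts in SKOV3, 0.873% in SKOV3 with PAE, 53.8% in SKOV3/DDP and 30.8% in SKOV3/DDP with PAE.

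A list of 68 genes that make, carry or answer cAMP and cGMP was read beside the PDEs. Between the untreated lines 52 were tested, 27 were higher and 18 lower in SKOV3/DDP (against 46.1% and 38.5% of all genes), and with the trend removed 16 were higher and 22 lower (36.7% and 33.1%). Higher were FOS, a CREB target (23.9 ± 3.46 to 551 ± 417 CPM, SD), and AKAP11, a kinase A anchor (3.67 to 109 CPM in the means). The kinase A inhibitor PKIB was higher too (no count in SKOV3 and 19.8 CPM in SKOV3/DDP). Lower were the kinase SIK1, listed like FOS as a cAMP-induced gene (13.2 to 0.231 CPM), the adenylyl cyclase ADCY3 (154 to 12.04 CPM) and the kinase A regulatory subunit PRKAR1B (182 to 18.0 CPM). These 6 genes were also called in the same direction with the trend removed, AKAP11 at 1.71 in place of 4.83 and PRKAR1B at −1.26 in place of −3.40 on the log2 scale. Of 10 adenylyl cyclases, 5 were tested, and 0 were higher and 4 lower, or 1 and 3 with the trend removed. Of 11 anchors, 10 were higher and 1 lower, but 4 and 3 with the trend removed. Of 8 cAMP-induced genes, 4 were higher and 2 lower, or 5 and 1 with the trend removed.

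With PAE in both lines, 14 of the 61 tested were higher and 20 lower in SKOV3/DDP (27.5% and 27.1% of all genes), and with the trend removed 15 and 21 (30.5% and 29.3%). Higher were PKIB (0.0901 against 29.3 CPM), the clock gene PER1 (21.6 against 133 CPM) and the growth factor AREG (38.0 against 106 CPM). Lower were the G protein subunit GNAI1 (73.1 CPM in SKOV3 with PAE), the kinase A inhibitor PKIA (14.2 CPM) and the guanylyl cyclase subunit GUCY1A2 (24.01 against 0.0510 CPM). GNAI1 and PKIA had no count in any library of SKOV3/DDP.

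With PAE in SKOV3, 35 of 61 rose and 11 fell (42.6% and 32.7% of all genes), against 17 and 7 with the trend removed (28.2% and 22.1%). GUCY1A2 (0.982 to 24.01 CPM), AKAP11 (3.67 to 52.5 CPM) and the transcription factor CREB1 (5.60 to 72.5 CPM) rose, and none of these 3 was called with the trend removed (edgeR adjusted p = 0.110, 0.0903 and 0.480). PRKAR1B (182 to 24.2 CPM), the kinase A inhibitor PKIG (119 to 18.7 CPM) and the CREB coactivator CRTC1 (122 to 21.7 CPM) fell, and were still called with the trend removed, with smaller changes of −0.55, −0.99 and −0.73 on the log2 scale. All 3 that rose are AT-rich and all 3 that fell are GC-rich, at 36.0% to 37.3% and 55.1% to 62.4%.

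With PAE in SKOV3/DDP, 13 of 61 rose and 4 fell (11.8% and 14.7% of all genes), and 12 and 5 with the trend removed (15.7% and 16.9%). The nuclear receptor NR4A2, an early cAMP-induced gene (6.71 to 37.8 CPM), PER1 (49.8 to 133 CPM) and the kinase A catalytic subunit PRKACB (19.8 to 47.6 CPM) rose. The anchor AKAP12 (94.9 to 20.1 CPM), the G protein subunit GNAL (17.8 to 5.65 CPM) and the EPAC gene RAPGEF3 (15.1 to 4.87 CPM) fell. Of 8 cAMP-induced genes 2 rose, with the trend in place or removed, and of 7 genes of the CREB family and its coactivators 4 rose, or 3 with the trend removed. For the difference of the PAE effect, 11 were positive and 26 negative (25.5% and 37.4% of all genes), and 9 and 15 with the trend removed (19.4% and 22.9%). PER1 (3.51), PRKAR1B (3.20) and PKIG (2.61) had the largest positive values on the log2 scale, and GUCY1A2 (−5.75), AKAP12 (−4.47) and PRKAR2B (−4.30) the largest negative ones by the rule for naming genes. Without the trend these were 1.75, 1.11 and 1.07, and −2.42, −2.85 and −1.59, and GUCY1A2 was then not called (edgeR adjusted p = 0.134).

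The 5 genes whose pattern was most like that of PDE2A were MYO7B, SERPINA5, CDHR5, SYT13 and LRG1. Likeness was the root mean square difference of log2(CPM + 0.5), centred for each gene, over the 12 libraries, and was 0.445, 0.512, 0.512, 0.519 and 0.528 in this order among 17132 genes. MYO7B, an unconventional myosin, averaged 0.346 CPM in SKOV3, 0.0895 in SKOV3 with PAE, 41.4 in SKOV3/DDP and 7.36 in SKOV3/DDP with PAE. CDHR5, a protocadherin that is one of the 8 intestinal markers above, averaged 0.406, 0.0339, 24.6 and 13.4 CPM in the same order. Of the members, PDE10A was nearest to PDE2A, at rank 304, then PDE4A at rank 606, and PDE5A was the farthest of those tested, at rank 15313.

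Overlapping genes bear on 3 members. PDE2A overlaps 4 listed genes, among them its antisense transcripts, whose means over the 12 libraries were at most 0.344 CPM. PDE5A overlaps the pseudogene SEPTIN7P14 on the opposite strand (3.42 CPM) and PDE3A the pseudogene LOC728688 on its own strand (3.99 CPM, above PDE3A itself). MTFR1, opposite PDE7A, averaged 50.9 CPM and, with PAE, was at 41.4 CPM in SKOV3 and 79.6 CPM in SKOV3/DDP. PDE4A and PDE8A overlap no listed gene.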

How the data were processed

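Poly-A RNA of 12 cell culture samples (Trizol) was captured on poly-T beads and made into NEBNext Ultra libraries, which are not stated to keep strand. Submitters' processing notes name HISAT2 2.0.5, StringTie 1.3.3b, DESeq2 and edgeR without their roles. The counting program, annotation release and strand setting are not given in the sources used here. The authors deposited raw counts per gene, 1 file for each library, for 47219 loci on GRCh38. The 869 loci without a name (0.126% to 0.678% of the counts) were left out. Columns of samples that were not used numbered 0.

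Low genes were dropped by filterByExpr and libraries scaled by TMM (edgeR 4.0.16, R 4.3.3). The test was edgeR's quasi-likelihood test at a Benjamini-Hochberg adjusted p of 0.05 over all genes tested. The untreated lines had a fit of 6 libraries (15323 genes), and all other comparisons one of 12 libraries (17133 genes). A standard error is the log2 fold change, without sign, over the square root of F. Printed CPM are TMM-normalized in the 12-library fit, and each fold against a group without counts is a lower bound at 3 counts over that group. The trend was on GC content (of GENCODE 29 transcripts) and the listed gene length, with 5-df splines fitted where the mean log2 CPM was at least 2. It was removed through offsets, for the 91.2% and 88.1% of tested genes with a GC value. Log2 fold changes of genes with no count in a group depend on the prior count. P-values of edgeR set a difference of group means against the spread between libraries of the same group. That spread was estimated over all groups of a fit and moderated across genes.

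The members, the gene lists and the tests were chosen with earlier results of these data known. All 10 members were named. Other PDEs were named with values where a group mean reached 1 CPM. For the pathway list the rule took, in each comparison, the 3 genes of each sign with the largest change among those called whose higher group averaged 10 CPM or more, and the 5 genes most like PDE2A were taken from the genes tested. Alternatives were DESeq2 1.42.0, scaling by library size, other filters on low counts, the replicate number as a block, other sets of libraries in the fit, the study's criteria, and each library left out. The scripts were tested on simulated data. No libraries were duplicates. Shares were tested with SciPy 1.17.1.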

Additional observations from a re-analysis of the deposited data

Results flagged for a closer look

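The effect of PAE differed between the lines for 6 of 9 members by the interaction term of the 12-library fit (SKOV3/DDP minus SKOV3, log2 scale, quasi-likelihood test of edgeR, adjusted by Benjamini-Hochberg). The same term was called for 62.9% of all genes (25.5% positive and 37.4% negative). PDE4D was at −4.35 ± 0.50 (SE, edgeR adjusted p = 3.18e-06), with 3 of 3 SKOV3 libraries higher with PAE than any untreated one and 3 of 3 SKOV3/DDP libraries lower. PDE8A was at −3.72 ± 0.43 (edgeR adjusted p = 2.93e-06), with the same directions in 3 of 3 libraries of each line. With the trend on GC content removed, PDE4D was at −1.29 ± 0.42 (edgeR adjusted p = 0.0238) and PDE8A at −1.39 ± 0.33 (edgeR adjusted p = 0.00449). Within SKOV3/DDP neither fall passed with TMM scaling (edgeR adjusted p = 0.0765 for PDE4D and 0.120 for PDE8A). With the trend removed both falls passed (edgeR adjusted p = 0.0179 and 0.0310), but the rise of PDE4D in SKOV3 did not (edgeR adjusted p = 0.437).

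PDE5A was at −3.99 ± 0.55 (edgeR adjusted p = 1.63e-05), and at −1.01 ± 0.53 with the trend removed (edgeR adjusted p = 0.140). PDE7A was at −1.88 ± 0.40 (edgeR adjusted p = 0.000819), with higher levels after PAE in both lines, and at 0.13 ± 0.35 with the trend removed (edgeR adjusted p = 0.819). PDE4B was at −7.44 ± 1.69 (edgeR adjusted p = 0.00171), and at −7.34 ± 2.76 with the trend removed (edgeR adjusted p = 0.0497). PDE10A was at −5.13 ± 1.37 (edgeR adjusted p = 0.00508), and at −5.11 ± 3.09 with the trend removed (edgeR adjusted p = 0.302). The values of PDE4B and PDE10A rest on untreated SKOV3 libraries without any count and are no bounds.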

How the results depend on the processing

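Of the members' log2 fold changes under all alternatives and left-out libraries, 723 kept their direction and their side of the threshold, 32 lost a call, 23 gained one and 23 changed sign. Of the changes of sign, 9 concern a value called in either fit, all with the GC and length trend removed, and 14 a value called in neither. Between the untreated lines, PDE8A was without the trend at −0.60 (−0.59 with the replicate block added) and PDE5A at −2.09 (−2.03). For PAE in SKOV3, PDE2A was at 0.21 (0.20) and PDE4A at 0.82 (0.80), and for PAE in SKOV3/DDP PDE4A was at 0.16 (0.16). For the difference of the PAE effect, PDE7A was at 0.13 (0.12), PDE3B at 0.42 (0.31) and PDE4A at −0.66 (−0.65). With scaling by library size alone, PDE4A was at 0.14 for PAE in SKOV3, at 0.093 for PAE in SKOV3/DDP and at −0.049 for their difference. With 1 library left out, PDE4A for PAE in SKOV3/DDP lay between −0.25 and 0.079, and PDE3B for the difference between −2.76 and 3.01. Counts of members called for PAE in SKOV3 (8) became 4 with the trend removed and 2 with the block as well (beside 7584 and 7122 of 15081 genes). For PAE in SKOV3/DDP (3) they became 5 with the trend removed (beside 4922 of 15081 genes) and 5 with only the 6 libraries compared (5072 of 14960). By the study's criteria they became 0 there (1218 of 17133 genes). For the difference of the effect (6) they became 3 with trend and block (5987 of 15081 genes). With at least 10 counts in every library only 5 members are tested, and 4 were called between the lines with PAE, 4 for PAE in SKOV3 and 3 for the difference. Over all 10594 genes tested at this setting, 5486, 9099 and 8226 were called in the same order. Leaving out 1 library gave 7 to 8, 7 to 9, 7 to 9, 1 to 4 and 6 to 7 calls in the order of the comparisons. Over all genes the calls were then 12727 to 13343, 8401 to 9944, 12372 to 13173, 2815 to 4998 and 10212 to 10727. The genes tested were 15728 to 15921 in the first comparison and 17653 to 17905 in the others. The count of 1 came without SKOV3/DDP with PAE replicate 1 (beside 3069 of 17714 genes) and again without its replicate 2 (3314 of 17653 genes). The causes were not tested.

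Libraries that share a replicate number did not deviate together: their 18 correlations lay between −0.130 and 0.105, and 10 of 36 were highest for their own number, so replicates were left unpaired. With the replicate number as a block, 7, 7, 8, 3 and 6 members were called, as without it. Over all genes these were 12706 of 15323, and 8959, 12701, 3997 and 10527 of 17133. Differences of the PDE2A share kept their sign under each alternative, and the fall with PAE in SKOV3 became as small as −0.56 points with the trend removed, with overlapping libraries. Depth limits PDE3A, PDE3B, PDE4B and PDE10A, which had from 47 to 429 counts over the 12 libraries.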
